A study of Mus musculus with 8 samples.

Results

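The genes described here are the mouse Egr transcription factors Egr1, Egr2, Egr3 and Egr4 and their corepressors Nab1 and Nab2. They were taken by symbol from a table of 52636 gene identifiers, in which 6 of 6 were found. They were selected on the difference between 4-hydroxytamoxifen (4OHT) and vehicle in these same libraries, so that difference is given below as a description and is not tested. RNA was sequenced from 8 libraries of mouse epiblast, the embryonic tissue that forms the body, at embryonic day 5.5. All 8 came from Sox2Cre;CRAFR26 embryos, in which Sox2Cre drives recombination in the epiblast and 4OHT induces ERK through the cRAF construct, so the vehicle libraries carry the construct too. Embryos were kept in IVC2 medium with 250 nM 4OHT for 4 h or with ethanol vehicle, the extraembryonic layers were dissected away, and 10 epiblasts were pooled for each library. The embryos came from clone 4 or clone 8 of the line, with 2 libraries for each clone and condition. The vehicle libraries carry 0 h in their titles and 4 h of vehicle in their treatment label, so a part of each difference may be 4 h of culture, which cannot be told apart here from 4OHT. No embryos without the construct were analysed here, so an action of 4OHT apart from the construct cannot be told apart either.

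ERK is the last kinase of the cascade that begins with RAS and RAF. It phosphorylates ternary complex factors such as Elk1, which sit with serum response factor on CArG boxes and switch on immediate early genes without new protein synthesis. The Egr proteins are zinc-finger factors encoded by such genes, and they bind GC-rich sites through nearly identical DNA-binding domains. Nab1 and Nab2 bind a short inhibitory domain that Egr1, Egr2 and Egr3 carry, and recruit the chromatin remodelling complex NuRD through Chd4. Nab2 is itself described as an Egr target, which makes the family a textbook negative feedback loop.

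Promoter sequences of 4 of the 6 genes, Egr2, Egr4, Nab1 and Nab2, were found in a RefSeq table on GRCm38.p6, the build also called mm10. Each window runs from 250 bases before an annotated start to 50 bases after it, and its 300 bases were searched on both strands. Egr2 had 5 such windows, some of which overlap. Lower-case stretches of 30 bases follow, with the matches in capitals, because they hold the sites by which ERK-regulated factors and Egr proteins are known to bind. The first pair is from Egr2, on the plus strand of chromosome 10. The first of these spans a CArG box followed by an ETS core (CCGGAA, bound by ternary complex factors) at chr10:67537494-67537523, and the second holds a CArG box of another annotated start at chr10:67537787-67537816.
Egr2 CArG box and ETS core: CCTTTTTTGGaaagtctcggagaaCCGGAA
Egr2 CArG box: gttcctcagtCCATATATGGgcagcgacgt

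The Nab1 window held 3 matches to the Egr site GCGNGGGCG, of which the first lies on the opposite strand. They are printed on the minus strand of chromosome 1, on which Nab1 lies, at chr1:52500571-52500600, chr1:52500539-52500568 and chr1:52500468-52500497.
Nab1 Egr site A: cgccccgcggcCGCCCACGCcgggatctgc
Nab1 Egr site B: cactcggccgcGCGTGGGCGggagccggag
Nab1 Egr site C: cgcggggcgggGCGGGGGCGgcggaggtgg
These matches start 141, 109 and 38 bases before the RefSeq start. GENCODE places the end of the gene further out, at 52500679, and all 3 stretches overlap an exon of its annotation. Of 32851 windows in the table, 5.55% held an Egr site and 0.813% held 2 or more. An ETS core was found in 14.9% of windows and a CArG box in 1.63%. Counted by gene, over all windows of each, the shares were 16.66% for an ETS core and 1.81% for a CArG box. The 5 Egr2 windows held 3 ETS cores, of which 2 overlap each other on opposite strands, and 2 CArG boxes. The cyclic AMP response element TGACGTCA, found in 1.79% of windows, had no match in the windows of these 4 genes, and the Egr4 and Nab2 windows held none of the 4 motifs. A match describes letters in a window, and no binding was measured.

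Sequencing depth differed between the conditions, with 33.3 to 38.0 M counts (M, mega) in the vehicle and 56.4 to 72.5 M in the 4OHT libraries. Levels are given in CPM, counts per 1 M of a library size scaled by the TMM method. The 8 epiblast markers, such as Pou5f1, were counted in every library and summed to 5060 to 5570 CPM in vehicle and 4340 to 4830 CPM in 4OHT. All 15 visceral endoderm markers were counted in every library too, with a sum of 895 and 549 CPM in vehicle and 2590 and 2920 CPM in 4OHT of clone 4. In clone 8 that sum was 1810 and 1850 CPM in vehicle and 486 and 1290 CPM in 4OHT, so it stood higher with 4OHT in one clone and lower in the other. The 8 extraembryonic ectoderm markers, also counted in every library, summed to 649 and 398 CPM in vehicle against 538 and 557 CPM with 4OHT for clone 4. For clone 8 they summed to 172 and 201 CPM against 615 and 496 CPM, so they stood higher with 4OHT there. Of 3 streak markers 2 were counted in every library, and the sum was 14.1 to 45.5 CPM in vehicle and 20.9 to 86.3 CPM in 4OHT. Of 5 maternal blood markers none was counted in every library, and the sum reached 19 CPM in 1 vehicle library and 3.2 CPM or less in the others. The part of these cells in the values below was not tested. In pooled tissue a change in the number of cells of a type and a change in RNA per cell cannot be told apart.

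Egr1 (ENSMUSG00000038418; mm10 chromosome 18, 34859823 to 34864984, plus strand) is the best-known member, induced within minutes by growth factors in many cells. In vehicle its counts were 301 and 612 for clone 4 but 207 and 203 for clone 8. With 4OHT they were 3087 and 5462 for clone 4 but 4655 and 22722 for clone 8. On the CPM scale clone 4 stood at 8.05 and 18.2 without 4OHT against 55.3 and 75.9 with it, while clone 8 stood at 5.77 and 6.11 against 74.7 and 379. The lowest 4OHT library thus lay above the highest vehicle library, and replicate 2 of 4OHT-treated clone 8 lay far above all others. The vehicle libraries averaged 9.53 ± 5.87 CPM and the 4OHT libraries 146 ± 155 CPM (SD, n = 4 each). The fitted log2 fold change was 2.32 (SE 0.64) in clone 4 and 5.25 (SE 0.73) in clone 8.

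Egr2 (ENSMUSG00000037868; chromosome 10, 67535475 to 67542188, plus strand), known from hindbrain segmentation and from myelination by Schwann cells, was sparse in vehicle. The counts were 7 and 20 in clone 4 and 19 and 18 in clone 8, which are 0.187, 0.595, 0.529 and 0.542 CPM. With 4OHT the levels were 1.06 and 1.26 CPM in clone 4 and 1.11 and 7.42 CPM in clone 8. The conditions did not overlap, and 3 of the 4 4OHT libraries lay within a narrow band of 1.06 to 1.26 CPM. The vehicle libraries averaged 0.463 ± 0.186 CPM and the 4OHT libraries 2.71 ± 3.14 CPM (SD, n = 4 each). The log2 fold change was 1.58 (SE 0.84) in clone 4 and 2.99 (SE 0.84) in clone 8. The promoter with a CArG box and an ETS core shown above belongs to this gene.

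Egr3 (ENSMUSG00000033730; chromosome 14, 70077203 to 70082614, plus strand), known for its part in muscle spindles and in lymphocytes, was close to absent in vehicle. It was counted 1 and 6 times in clone 4, and 0 and 4 times in clone 8. The library with 0 counts allows up to 3 counts, or 0.0836 CPM, by counting error alone. With 4OHT the counts were 42 and 45 in clone 4 and 68 and 541 in clone 8. Clone 4 thus had 0.753 and 0.625 CPM, clone 8 had 1.09 and 9.02 CPM, all above the highest vehicle library at 0.179 CPM. The log2 fold change was 2.75 (SE 1.21) in clone 4 and 6.37 (SE 1.31) in clone 8. In clone 8 it ran from 4.15 without 4OHT replicate 2 to 11.01 without vehicle replicate 2, which left only the vehicle library at 0 counts.

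Egr4 (ENSMUSG00000071341; chromosome 6, 85511121 to 85513589, minus strand), described in neurons and in male germ cells, had the lowest mean level per kilobase of the 6 genes with 4OHT. Its vehicle counts of 6 and 1 in clone 4 and 3 and 6 in clone 8 are 0.16, 0.0298, 0.0836 and 0.181 CPM. With 4OHT it was counted 13 and 13 times in clone 4, at 0.233 and 0.181 CPM, and 35 and 134 times in clone 8, at 0.561 and 2.23 CPM. The conditions were apart within each clone, but replicate 2 of 4OHT-treated clone 4 and replicate 2 of vehicle clone 8 met at 0.181 CPM. The log2 fold change was 1.07 (SE 0.99) in clone 4 and 3.39 (SE 0.96) in clone 8. In clone 4 it ran from 0.36 without vehicle replicate 2 to 2.70 without vehicle replicate 1, so at these counts a single library set its size.

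Nab1 (ENSMUSG00000002881; chromosome 1, 52457294 to 52500679, minus strand) is the corepressor with the Egr sites printed above around its RefSeq start. It was counted 89 and 133 times in vehicle clone 4, and 148 and 119 times in vehicle clone 8. The levels were 2.38, 3.96, 4.12 and 3.58 CPM, the narrowest vehicle range of the 6 genes in proportion, with a mean of 3.51 ± 0.787 CPM (SD, n = 4). With 4OHT the levels were 10.4 and 7.61 CPM in clone 4 and 6.91 and 61.4 CPM in clone 8. Every 4OHT library lay above every vehicle library. The log2 fold change was 1.51 (SE 0.77) in clone 4 and 3.15 (SE 0.80) in clone 8, and without 4OHT clone 8 replicate 2 the latter was 0.84.

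Nab2 (ENSMUSG00000025402; chromosome 10, 127660918 to 127668568, minus strand) had the lower mean level per kilobase of the 2 corepressors in vehicle, at 33 and 104 counts in clone 4 and 26 and 38 in clone 8. With 4OHT it reached 1191 and 1088 counts in clone 4, and 566 and 6575 in clone 8. The vehicle levels of 0.882, 3.09, 0.724 and 1.14 CPM stood against 21.4 and 15.1 CPM in 4OHT-treated clone 4 and 9.08 and 110 CPM in clone 8. The ranges were well apart, and the vehicle libraries averaged 1.46 ± 1.1 CPM and the 4OHT libraries 38.8 ± 47.5 CPM (SD, n = 4 each). The log2 fold change was 3.21 (SE 0.98) in clone 4, the largest of the 6 genes there, and 5.99 (SE 1.12) in clone 8. Nab2 overlaps 3 genes of the opposite strand, and whether strand was used in counting is not given in the sources used here. Of these Nemp1 shares 1668 bases, Gm16229 1646 bases and Stat6 40 bases. Gm16229, to which 780 of the 2581 50-base stretches of Nab2 exons also match, was counted once in 1 library and not at all in the other 7. Nemp1 stood at 11.2 to 14.8 CPM in vehicle and 14.8 to 25.8 CPM in 4OHT libraries.

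**Figure D1:**
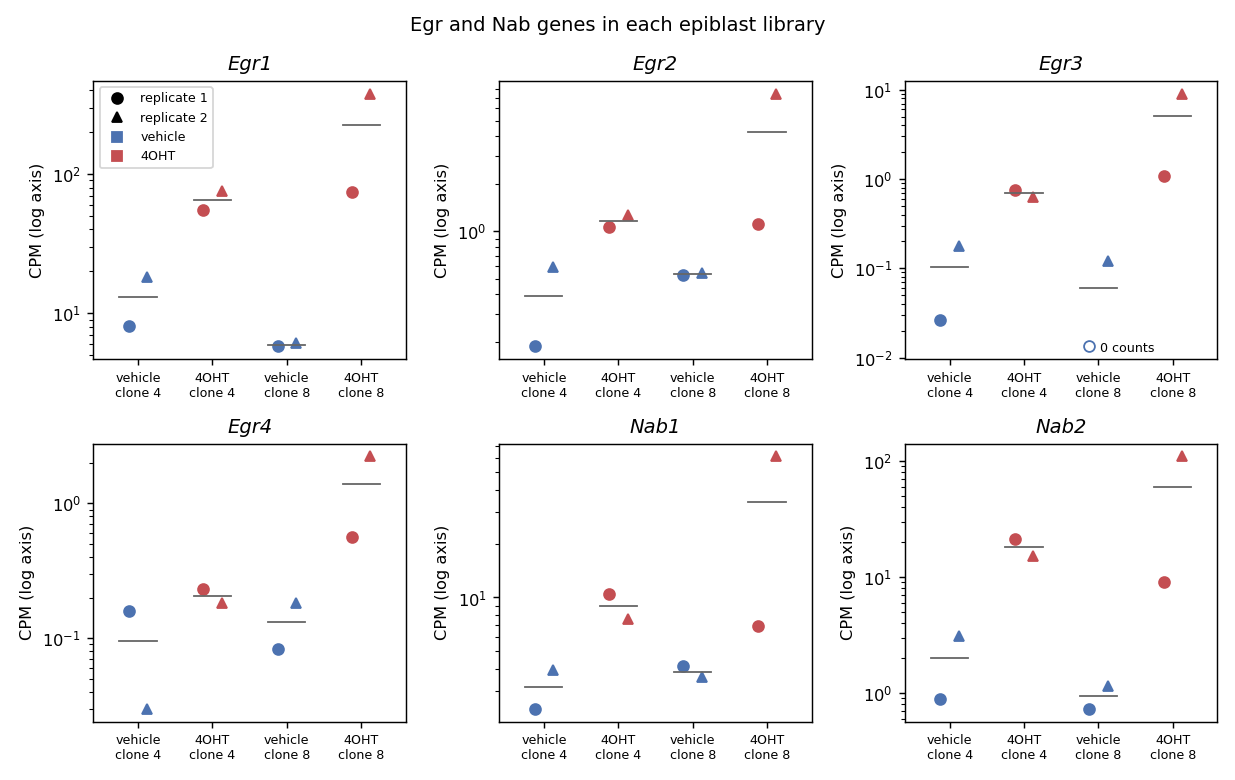
Level of each Egr and Nab gene in CPM (log axis, own range per panel) in the 8 libraries, by clone and condition. Circles are replicate 1, triangles replicate 2, and grey lines the mean of a group of 2. The 4OHT triangle of clone 8 is the highest point of every panel, and 5 of 6 genes have all 4OHT libraries above all vehicle libraries, Egr4 being the exception.

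Over both clones the log2 fold changes were 3.76 (SE 0.73) for Egr1, 2.31 (SE 0.64) for Egr2, 4.61 (SE 1.08) for Egr3, 2.33 (SE 0.79) for Egr4, 2.34 (SE 0.62) for Nab1 and 4.53 (SE 0.90) for Nab2. Their median was 3.05, beside a median of 0.044 over the 18321 genes tested. In clone 4 alone the median of the 6 was 1.95 beside -0.005, and in clone 8 alone it was 4.32 beside 0.069. For 5 of the 6 genes all 4OHT libraries lay above all vehicle libraries, which held for 3.42% of all genes tested. This count describes the contrast that chose the genes and supports nothing further. All 6 passed the filter on low counts, but Egr3 and Egr4 reached the level of the filter, 0.212 CPM, in none of the vehicle libraries, so their 4OHT libraries alone carried them past it.

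The clones' responses differed in size for every member, by an amount that moved with 1 library. Clone 8 minus clone 4 was 2.93 (SE 0.90) on the log2 scale for Egr1, 1.41 (SE 1.17) for Egr2, 3.62 (SE 1.91) for Egr3, 2.32 (SE 1.39) for Egr4, 1.64 (SE 1.07) for Nab1 and 2.78 (SE 1.39) for Nab2. Without 4OHT clone 8 replicate 2 the difference was 1.32 for Egr1, 1.41 for Egr3 and 0.999 for Egr4, which came to 0.67 without vehicle clone 4 replicate 1. In the same fit it was 0.07 for Nab2, and the sign turned for Egr2 at -0.54 and Nab1 at -0.67. The median difference of the 6 genes moved from 2.55 to 0.54.

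**Figure D2:**
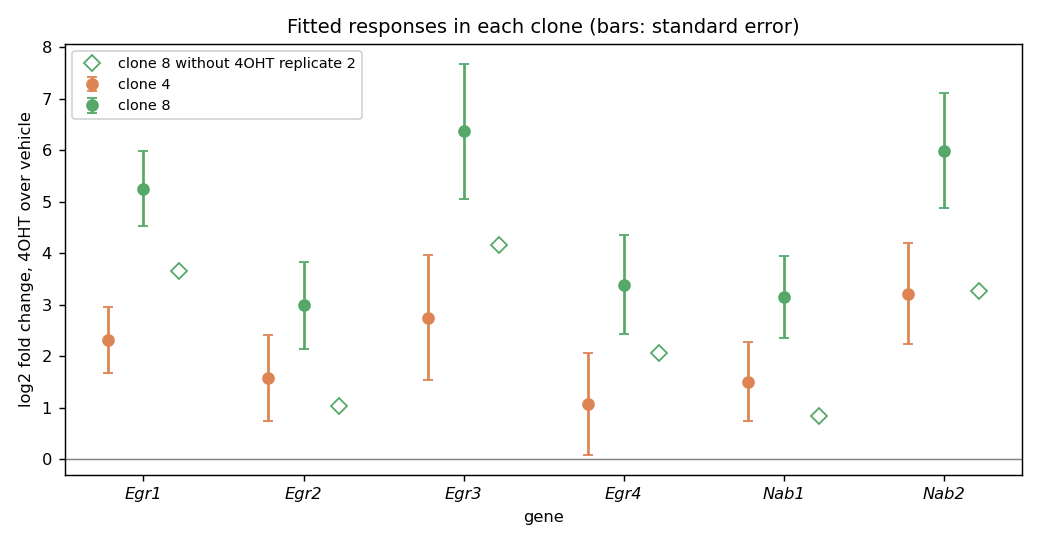
Fitted log2 fold change of 4OHT over vehicle in clone 4 and clone 8, with bars of 1 SE from the fit of all 8 libraries, and open diamonds for clone 8 without its second 4OHT replicate. All values lie above 0, and the diamonds lie below the clone 4 points for Egr2 and Nab1 and close to the clone 4 point for Nab2.

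Replicate 2 of 4OHT-treated clone 8 stood apart in each of the 6 genes. Its level divided by the highest of the other 7 libraries was 4.99 for Egr1, 5.87 for Egr2, 8.27 for Egr3, 3.98 for Egr4, 5.92 for Nab1 and 5.13 for Nab2. Of the 18321 genes tested, Egr3 had the largest such ratio, and 3 to 19 genes lay above each of the other members. This library is among the 4OHT libraries behind the choice of the genes, so these ranks are a description. Egr3 and Egr4 passed the filter through their 4OHT libraries alone. Among the genes outside the family with the largest ratios were Pla2g7 (7.68), Csn3 (5.98), the ERK phosphatase gene Dusp2 (5.46), Fmnl1 (5.38) and Rrad (5.21), which were chosen after their values were seen. The median gene had a log2 ratio of -0.03 to the mean of the other 4OHT libraries.

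Other values also moved in that library. Mitochondrial genes took 1.19% of its counts and 1.35% in the other 4OHT library of clone 8, against 0.205 to 0.619% elsewhere. The streak gene T stood at 39.6 CPM, against 3.34 to 10.3 CPM in the other 7 libraries. Of the other streak markers, Mesp1 stood at 3.12 CPM, against at most 1.34 CPM elsewhere. Mixl1, at 43.6 CPM, lay within the range of the others, 7.59 to 69.7 CPM. The immediate early genes Fos and Jun stood at 49.4 and 51.3 CPM, above their highest levels elsewhere of 19.8 and 23.7 CPM. The heat shock gene Hspa1b stood at 1.37 CPM, against 0.181 to 0.374 CPM elsewhere, while Hspa1a at 1.98 CPM lay within the range of the others. The part of any of these in the levels of the Egr and Nab genes was not tested. Leaving that library out, the mean of the other 3 4OHT libraries over the vehicle mean was 7.2-fold for Egr1, 2.47-fold for Egr2, 10.1-fold for Egr3, 2.86-fold for Egr4, 2.36-fold for Nab1 and 10.4-fold for Nab2. The high library itself stood 39.7-fold above the vehicle mean for Egr1, 16-fold for Egr2, 111-fold for Egr3, 19.7-fold for Egr4, 17.5-fold for Nab1 and 75-fold for Nab2.

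**Figure D3:**
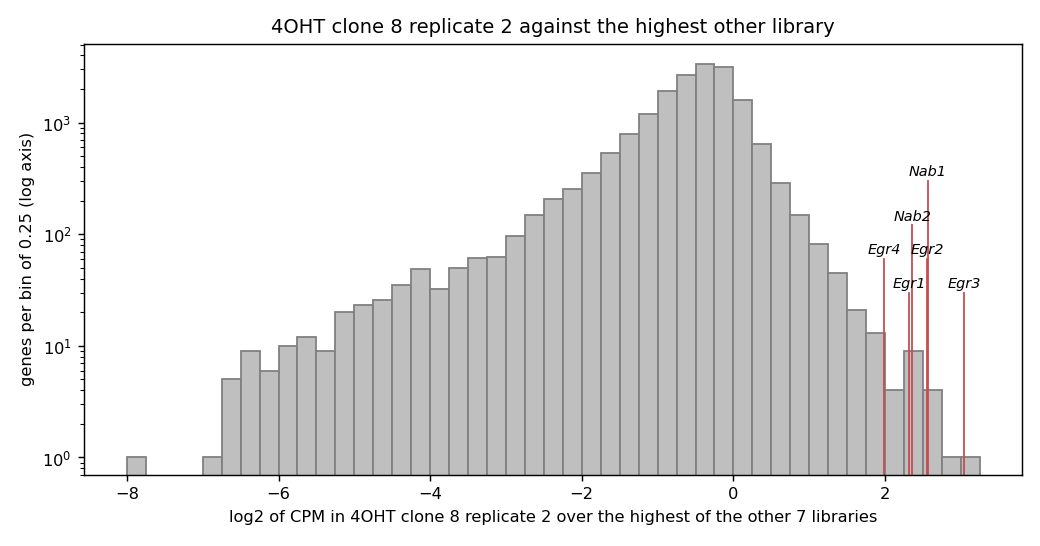
Distribution over 17918 genes of the log2 ratio of CPM in 4OHT clone 8 replicate 2 to the highest of the other 7 libraries, in bins of 0.25 on a log axis of gene counts, without 403 genes at 0 in that library. Red lines mark the 6 genes, at ratios of 3.98 to 8.27, in the far right tail; the height of a line has no meaning.

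Replicates of the other groups also varied. In vehicle clone 4 replicate 2 was 2.26-fold above replicate 1 for Egr1, 3.18-fold for Egr2, 6.68-fold for Egr3, 1.66-fold for Nab1 and 3.51-fold for Nab2, whereas Egr4 was 5.39-fold higher in replicate 1. In vehicle clone 8 the ratio of the higher to the lower replicate was 1.06 for Egr1, 1.02 for Egr2, 2.16 for Egr4, 1.15 for Nab1 and 1.58 for Nab2, and Egr3 stood at 0 and 0.12 CPM. The 4OHT replicates of clone 4 had no ratio above 1.41, with 1.2 for Egr2 and Egr3, 1.29 for Egr4, 1.36 for Nab1, 1.37 for Egr1 and 1.41 for Nab2. In 4OHT-treated clone 8 the same ratio ran from 3.98 for Egr4 to 12.1 for Nab2.

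The balance of the 2 corepressors and Egr1 was followed through ratios of counts within each library, which do not depend on depth. Nab2 counts per Nab1 count were 0.371 and 0.782 in vehicle clone 4 and 0.176 and 0.319 in vehicle clone 8, so Nab1 was counted more often. With 4OHT clone 4 had ratios of 2.06 and 1.99, clone 8 had 1.31 and 1.79, so Nab2 was counted more often in every library. Nab1 counts per 100 Egr1 counts stood at 29.6 and 21.7 in vehicle clone 4 and 71.5 and 58.6 in vehicle clone 8. With 4OHT clone 4 had 18.8 and 10, clone 8 had 9.26 and 16.2, all below the vehicle libraries. Nab2 counts per 100 Egr1 counts were 11 to 18.7 in vehicle and 12.2 to 38.6 in 4OHT libraries, ranges that overlapped. In the library that stood apart the 3 ratios were within the range of the other 4OHT libraries, at 1.79, 16.2 and 28.9. These ratios are made from the contrast that chose the genes and were not tested.

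**Figure D4:**
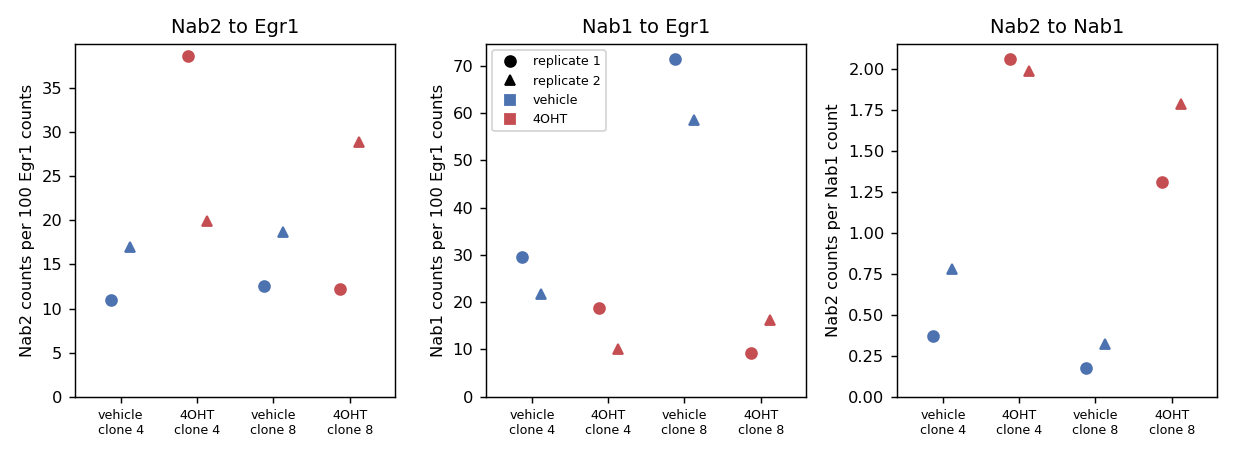
Ratios of raw counts within each of the 8 libraries by clone and condition, on linear axes from 0, with circles for replicate 1 and triangles for replicate 2. Nab2 to Nab1 is 1.31 to 2.06 with 4OHT and 0.176 to 0.782 in vehicle, Nab1 to Egr1 is lower with 4OHT, and Nab2 to Egr1 overlaps.

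Levels between genes were compared per kilobase of the longest annotated coding transcript. In vehicle Egr1 led at 2.13 ± 1.31 CPM per kilobase (SD, n = 4), ahead of Nab1 at 0.906 ± 0.203 and Nab2 at 0.566 ± 0.427 on the same scale. Egr2 at 0.156 ± 0.0628, Egr4 at 0.0529 ± 0.0325 and Egr3 at 0.0207 ± 0.021 CPM per kilobase were at the bottom. Library ranges of Nab1 and Nab2 overlapped, as did those of Egr2 with Egr4 and of Egr4 with Egr3. With 4OHT the order of the mean level per kilobase was Egr1 (32.6 ± 34.7), Nab2 (15 ± 18.4), Nab1 (5.57 ± 6.87), Egr2 (0.915 ± 1.06), Egr3 (0.729 ± 1.04) and Egr4 (0.374 ± 0.451), and every neighbouring pair overlapped. With the shortest transcript as length, 4 places in the 2 orders changed: Egr3 came to 0.054 and Egr4 stayed at 0.0529 CPM per kilobase in vehicle, and Egr3 came to 1.9 and Egr2 to 1.02 in 4OHT. Egr1 made up 82.1 to 94% of the level per kilobase of the 4 Egr genes in vehicle and 93.5 to 96.2% in 4OHT.

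The vehicle libraries of the 2 clones allowed a test of another contrast than the one behind the choice, although it draws on the same vehicle libraries. By edgeR's quasi-likelihood test with Benjamini-Hochberg adjustment over all genes, 0 of 6 members were called different between clone 8 and clone 4 in vehicle, while 8.37% of all genes were. Egr3 and Egr4, with 0 to 6 counts in the vehicle libraries, could hardly have been called, so the count says little of them. At an unadjusted p under 0.05 the count was 0 of 6, beside 4704 of all 18321 genes. With DESeq2 it was 0 of 6, Egr4 having no adjusted p there, beside 3064 of all genes. Egr1 had a log2 difference of -1.14 (SE 0.66, adjusted p = 0.322 in edgeR), with both clone 8 libraries below both clone 4 libraries. Nab2 had -1.08 (SE 1.09, adjusted p = 0.606 in edgeR), and the clone 8 level of 1.14 CPM overlapped the clone 4 range. The others were 0.46 (SE 0.89) for Egr2, -0.75 (SE 1.65) for Egr3, 0.43 (SE 1.06) for Egr4 and 0.29 (SE 0.78) for Nab1, with adjusted p of 0.806 to 0.872 in edgeR. The standard errors leave room for sizeable differences either way. The Egr1 value passed the threshold in 3 of 13 alternatives, at an edgeR adjusted p of 9.73e-09 without the filter, 0.0488 without 4OHT clone 8 replicate 1 and 0.0491 without replicate 2, in a range of 9.73e-09 to 0.859. Without vehicle clone 4 replicate 2 the Egr1 difference was -0.43. Without the filter it was -1.16, near the main value, so there the p moved and the difference hardly did. That fit called 2901 of 30973 genes between the vehicle clones, against 1534 of 18321 in the main fit. Nab2 passed in 1 of 13, without the filter, at an edgeR adjusted p of 0.0039, in a range of 0.0039 to 0.996.

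The genes whose levels followed Egr1 most closely over the 8 libraries were found by the Pearson correlation of log2 CPM, given as a description over libraries that share condition and depth. Among the members Nab2 was closest to Egr1 at 0.979, followed by Egr3 at 0.966, Egr2 at 0.897, Nab1 at 0.895 and Egr4 at 0.781. Among all 18321 genes tested, Egr1 itself aside, these ranked 1, 6, 79, 82 and 665 in that order. The members were chosen on the 4OHT contrast in these same libraries, so their correlations support nothing further. Of 18315 genes outside the family the 5 closest were Tmem62 (0.974), the phosphatase subunit gene Ppp2r5d (0.973), the semaphorin and VEGF coreceptor gene Nrp2 (0.970), Zadh2 (0.967) and Lsmem2 (0.964). Nrp2 stood at 5.88 to 7.83 CPM in vehicle and 11.2 to 22.3 CPM in 4OHT libraries, and Ppp2r5d at 99.4 to 110 and 119 to 139 CPM. The 5 closest to Nab2 were the potassium channel gene Kcna1 (0.969), Slc46a3 (0.965), the small GTPase gene Rrad (0.963), Gm49327 (0.959) and Mical3 (0.957). Rrad stood at 1.28 to 1.75 CPM in vehicle and 5.47 to 49.9 CPM in 4OHT libraries, and Slc46a3 at 5.85 to 11.4 and 17.3 to 66 CPM. All 10 genes were highest in 4OHT clone 8 replicate 2.

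The rest of the pathway was followed through 6 lists with 73 genes, all of which were tested. In clone 4, 0 of 73 were called by edgeR's quasi-likelihood test at an adjusted p under 0.05, where 0.0382% of all genes were. At an unadjusted p under 0.05 there were 6 of 73, beside 1814 of all 18321 genes. DESeq2 called 2 of 73, beside 468 of all genes. Those 2 were the feedback genes Dusp4 and Spry2, which are named after their values were seen. In both clones together 0 of 73 were called, where 0.00546% of all genes were. At an unadjusted p under 0.05 there were 19, beside 3088 of all genes, and DESeq2 called 6, beside 1053. In clone 8, 18 of 73 were called, where 16.6% of all genes were. Without vehicle clone 8 replicate 1 there were 0, and without 4OHT clone 8 replicate 2 there were 12. The difference of the 2 responses was called for 4 of 73 genes, where 2.83% of all genes were. When libraries were dropped singly, 1 of 8 fits kept that call for Zfp36, 2 kept it for Fos and 3 for Fosl1. The fit without 4OHT clone 8 replicate 1 kept it for each of these genes, while the fit without replicate 2 kept Fos, at a difference of 2.16, and Fosl1.

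Of 17 other immediate early genes 7 rose and 0 fell in clone 8, where 16.6% of all genes were called. The list's median log2 fold change there was 0.88, beside 0.069 over all genes. Fos, a subunit of the AP-1 factor, rose by 2.61 (SE 0.52, adjusted p = 0.0148 in edgeR). The AP-1 family genes Fosl1 and Junb rose by 2.07 (SE 0.30) and 1.52 (SE 0.36). Zfp36, whose product destabilises AU-rich mRNAs, rose by 1.24 (SE 0.20). Without 4OHT clone 8 replicate 2 the value was 1.50 for Fos and 0.97 for Junb, the latter at an edgeR adjusted p of 0.076, where the alternatives for Junb ran from 3.65e-16 to 0.194. Fos stood at 3.57 and 7.05 CPM in vehicle clone 8 and 15.1 and 49.4 CPM with 4OHT, against 19.8 and 16.4 CPM in vehicle clone 4 and 10.5 and 12.4 CPM with 4OHT. Fosl1 stood at 3.51 and 6.02 CPM in vehicle clone 8 and at 17.1 to 32.8 CPM in the other 6 libraries. In vehicle Fosl1 was lower in clone 8 than in clone 4 by a log2 difference of -2.54 (edgeR adjusted p = 0.00905), and Zfp36 by -0.99 (edgeR adjusted p = 0.0255). In clone 4 the list's median was -0.18, with 12 of 17 genes on the lower side. The response of Fos differed between the clones by 3.26 (SE 0.71, edgeR adjusted p = 0.0476), that of Fosl1 by 2.66 (SE 0.41, edgeR adjusted p = 0.0262) and that of Zfp36 by 1.24 (SE 0.27, edgeR adjusted p = 0.0491). The 6 Egr and Nab genes stood at log2 fold changes of 1.07 to 3.21 in clone 4. They were chosen on this contrast, so no comparison with the list is drawn.

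Of 12 ERK feedback genes 3 rose and 1 fell in clone 8, beside 16.6% of all genes called. The list's median log2 fold change there was 0.49. The phosphatase gene Dusp1 rose by 1.26 (SE 0.31), Spry4 by 0.91 (SE 0.21) and the ERK phosphatase gene Dusp6 by 0.79 (SE 0.18), while Spred1, another inhibitor of the RAS pathway, fell by 0.58 (SE 0.17). Dusp1 was called in 3 and Spred1 in 1 of the 8 fits that left out 1 library, Spred1 at an edgeR adjusted p of up to 0.246 over its alternatives. Without 4OHT clone 8 replicate 2 the value was 0.52 for Dusp1 and 0.51 for Dusp6, and without vehicle clone 8 replicate 1 it was 0.58 for Spry4. Dusp6 stood at 150 and 184 CPM in vehicle clone 8 and 240 and 339 CPM with 4OHT, against 212 in both vehicle libraries of clone 4 and 257 and 215 CPM with 4OHT.

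Of 17 genes described elsewhere as Egr targets 1 rose and 1 fell in clone 8, beside 16.6% of all genes called, with a median of 0.32 there and 0.17 in clone 4. The cyclin gene Ccnd1 fell by 0.74 (SE 0.16), from 288 and 275 CPM to 192 and 145 CPM.

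Of 13 NuRD genes, through which the Nab proteins are known to act, 0 rose and 2 fell in clone 8, a share near the 16.6% of all genes called there, with a median of -0.19. The histone deacetylase gene Hdac2 fell by 0.91 (SE 0.23) and Mta1 by 1.56 (SE 0.25). With 1 library left out, the log2 fold change ran from -1.16 to -0.68 for Hdac2 and from -1.93 to -1.14 for Mta1. Mta1 stood at 89 and 51.6 CPM in vehicle clone 8 and at 20.8 to 27 CPM in the other 6 libraries. In vehicle both were higher in clone 8 than in clone 4, Hdac2 by 1.19 (edgeR adjusted p = 0.0249) and Mta1 by 1.62 (edgeR adjusted p = 0.0185). Of 6 SRF and ternary complex genes 0 rose and 1, Srf, fell by 0.94 (SE 0.20), again a share near that of all genes, with a median of 0.56. With 1 library left out, the Srf value in clone 8 ran from -1.16 to -0.75. Srf too was higher in vehicle clone 8 by 1.42 (edgeR adjusted p = 0.0162). Of 8 heat and handling genes 1, Hsph1, rose by 0.56 (SE 0.16) and 1, Hsp90aa1, fell by 0.67 (SE 0.12). This stands beside 16.6% of all genes called, and the list's median was 0.42. The Hsph1 call held in 1 of the 8 fits that left out 1 library, and its value was 0.28 without vehicle clone 8 replicate 1. The vehicle libraries of clone 8 enter both the clone 8 response and the comparison of the clones in vehicle, so these values are not independent of each other.

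**Figure D5:**
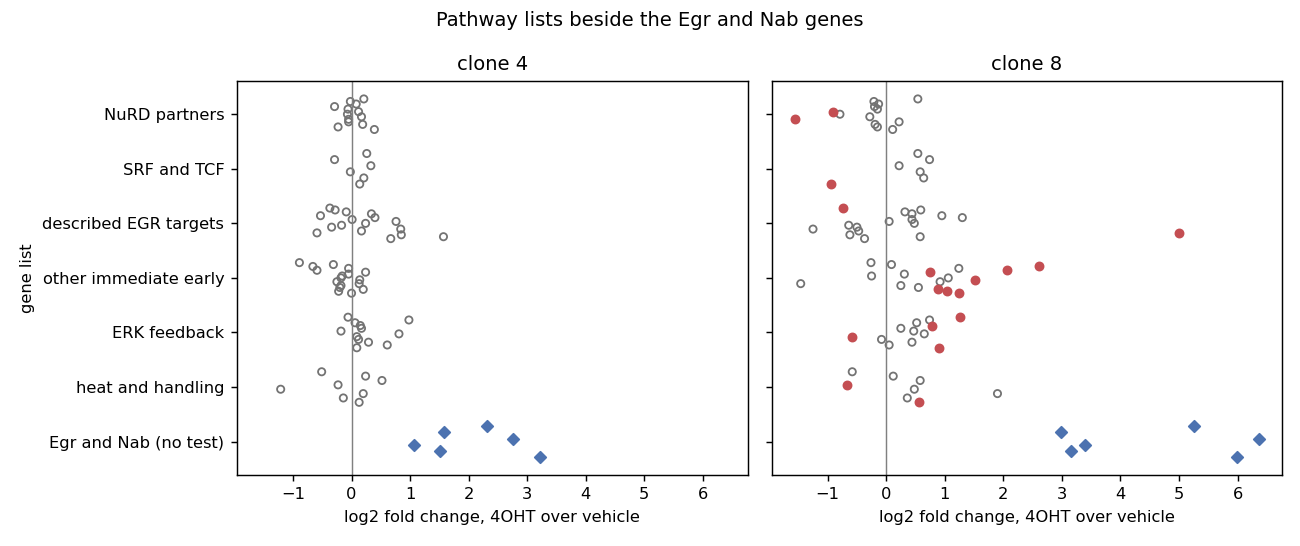
Log2 fold change of 4OHT over vehicle for the 73 genes of the 6 lists and the 6 Egr and Nab genes, in clone 4 and clone 8. Filled red circles passed an adjusted p under 0.05 and open circles did not, and blue diamonds are the untested Egr and Nab genes at 1.07 to 3.21 in clone 4 and 2.99 to 6.37 in clone 8; 0 list genes are filled in clone 4 and 18 in clone 8.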

How the data were processed

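The values used are raw counts for Ensembl genes in 1 deposited table, as its whole numbers and unequal column totals show. The submitters' processing notes name bcl2fastq 2.19.1, the aligner STAR 2.5.3a and the build mm10; the counter, annotation and use of strand are not given in the sources used here. Libraries were made from 7 ng of RNA with a low-input kit, per the labels' protocols. Symbols matched 52403 of 52636 identifiers, and the other 233 held at most 0.0325% of any library's counts.

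Genes were kept by filterByExpr of edgeR 4.0.16 (R 4.3.3) at its minimum count of 10, which left 18321. With TMM scaling, 1 quasi-likelihood fit of the 4 groups of clone and condition gave the responses within clones, their difference and the vehicle comparison. A fit with clone as an additive term gave the response in both clones. A gene was called at a Benjamini-Hochberg adjusted p under 0.05 over all 18321 genes. SE is the log2 fold change divided by the square root of F. Correlations used log2 CPM with a prior count of 2. Fits were tested on simulated data. Gene positions and transcript lengths came from GENCODE on GRCm38. Nothing in the labels says that replicates came from separate litters, so p-values measure the spread between these libraries, which may be technical; replicates differed by more than counting error.

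The members and lists were chosen with earlier results of these data known. Named were all 6 members, at most 4 called genes of each list by size of change, the 5 genes most like Egr1 and Nab2, and markers; 1 further gene of that rule is not reported here, though counts include it. Alternatives were RLE scaling, other filters, DESeq2 1.42.0, a replicate block, each clone alone, and leaving out each library.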

Additional observations from a re-analysis of the deposited data

Results flagged for a closer look

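A search covered 12 sets, the 4 vehicle and the 4 4OHT libraries for each of the 6 genes. For 6 values the gap to the other 3, as a share of the whole range, passed Dixon's critical value for 4 values. Of these, 5 belong to 1 library, replicate 2 of 4OHT-treated clone 8, so they are not independent. Its Egr1 level was 379 CPM where the other 4OHT libraries held 55.3 to 75.9 CPM. Its Egr2 level was 7.42 CPM against 1.06 to 1.26 CPM, and its Egr3 level 9.02 CPM against 0.625 to 1.09 CPM. Nab1 stood at 61.4 CPM against 6.91 to 10.4 CPM, and Nab2 at 110 CPM against 9.08 to 21.4 CPM. The last was Egr2 in vehicle clone 4 replicate 1, at 0.187 CPM from 7 counts, below the 0.529 to 0.595 CPM of the other vehicle libraries. About 0.6 values would pass by chance if each set came from 1 normal distribution. The clones were pooled in these sets, and the values are those behind the choice of the genes. The figure of 0.6 therefore does not hold for them, and the count is only a description.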

How the results depend on the processing

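The 4OHT response of the 6 genes kept its sign in 237 of 237 alternative values, which ran from 0.36 to 11.01 on the log2 scale. Egr2, Egr3 and Egr4 gave none at 10 counts in every library. Within each clone both 4OHT libraries lay above both vehicle libraries for all 6 genes. Refits of the same 8 libraries could therefore hardly turn a sign. The share of all genes ordered that way within a clone was not computed. The genes were also chosen on this contrast, so these counts are a description. The size did not hold as well: the median difference between clones ran from 0.54 to 3.34 when 1 library was left out. The Egr2 difference ran from -0.54 to 2.20 and that of Nab1 from -0.67 to 2.49. Between vehicle clones the same fits gave -0.14 to 1.51 for Egr2, -5.39 to 1.07 for Egr3, -0.28 to 2.06 for Egr4, -0.029 to 0.70 for Nab1 and -1.72 to 0.085 for Nab2. The shortest transcript length changed 4 ranks. Genes called in clone 4 numbered 7, but 728 without the filter, 78 at 10 counts in every library, 468 with DESeq2, 220 in a fit of that clone and 0 to 267 with 1 library left out. In clone 8, 3041 became 0 in a fit of that clone and 0 to 3179 with 1 left out, with 0 without vehicle replicate 1. For both clones, 1 became 1337 without the filter, 0 at 10 counts in every library, 1053 with DESeq2 and 0 to 1 with 1 left out. Between vehicle clones, 1534 became 2901 without the filter, 3064 with DESeq2 and 0 to 2518 with 1 left out. List genes numbered 5 without the filter and 2 with DESeq2 in clone 4, 16 and 6 in both clones, and 0 to 25 in clone 8 with 1 left out. The causes were not tested. With the replicate number as a block, 0 genes were called in clone 4, 2897 in clone 8, 0 in both and 1581 between vehicle clones, and the median difference was 1.96. Deviations of same-numbered libraries correlated at 0.095 in clone 4 and -0.01 in clone 8. With 2 libraries in each group, these values cannot tell whether same-numbered libraries shared a litter or handling. Depth limits Egr3 and Egr4 most, with 0 to 6 counts in vehicle, and groups of 2 limit every fit.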
